A study of Mus musculus with 4 samples.

Results

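Long noncoding RNAs (lncRNAs) are transcripts, mostly as long as mRNAs, that act without being translated. The 9 described here, *Malat1*, *Neat1*, *Meg3*, *Rian*, *Gas5*, *Snhg11*, *Miat*, *Six3os1* and *Tug1*, were chosen by name as lncRNAs known from the retina, out of 24322 gene symbols, and all 9 were listed. They were measured by RNA-seq in mTFP-positive cells sorted from the retinas of 4 mice, to ask how their levels differed when *Rax*, a homeobox gene expressed in Müller glial cells, was deleted. The 2 control mice (numbers 7984 and 3911) were Raxflox/WT and the 2 *Rax* iCKO mice (numbers 7983 and 3914) were Raxflox/flox. All 4 also carried Rlbp1-CreERT2 and R26-CAG-LoxP-mTFP1, were labelled 129S6, were given tamoxifen at P4, and had their retinas taken at P14. Cre was driven by the promoter of *Rlbp1*, a gene of Müller glial cells, so the sort collected cells in which the reporter had been switched on, and the controls carried a floxed *Rax* allele too. Each library came from a single mouse, and nothing in the labels says whether mice of nearby numbers were littermates.

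LncRNAs are often retained in the nucleus. *Malat1* is found in nuclear speckles, where splicing factors collect, *Neat1* builds the paraspeckles next to them, and the *Malat1* and *Neat1* genes are neighbours. *Meg3* and *Rian* are transcribed from the maternal copy of the imprinted *Dlk1*-*Dio3* region, *Gas5* and *Snhg11* belong to the host genes of small nucleolar RNAs, *Miat* and *Tug1* are known from retinal neurons and photoreceptors, and *Six3os1* is transcribed opposite to the eye homeobox gene *Six3*.

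*Meg3*, *Gas5*, *Malat1*, *Neat1* and *Miat* were higher in both *Rax* iCKO mice than in both controls, which is 5 of the 9, and none of the 9 was lower in both. Over the 17865 genes with any FPKM above 0, 13.7% were higher in both *Rax* iCKO mice and 14.5% were lower in both. FPKM count the sequenced fragments on a gene relative to the length of its exons and to the mapped fragments of the library. The ratio of mean FPKM was 1.68 for *Meg3*, 1.53 for *Gas5*, 1.41 for *Malat1* and 1.18 for *Neat1*. It was 2.51 for *Miat*, from few reads and resting on mouse 3914. The groups overlapped for *Rian*, *Snhg11*, *Six3os1* and *Tug1*. None of the 7 whose mean FPKM reached 1 passed limma's test after Benjamini-Hochberg adjustment over the 12363 such genes, of which 3 (0.0243%) passed.

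The promoters of *Meg3*, *Gas5* and *Malat1* are shown because these genes had the largest differences among the 7 tested. *Meg3* and *Gas5* have 2 annotated starts each, and the printed one was chosen because it holds the letters marked, which the other does not. Each is the RefSeq (GRCm38.p6) sequence from 250 bases before to 50 bases after an annotated start, 5′ to 3′ on the strand of the gene, with the capitals marking the letters TGACGT read on either strand. The *Malat1* promoter is chr19:5802623-5802922 on the minus strand, the *Meg3* promoter (the first of its annotated starts) chr12:109540746-109541045 on the plus strand, and the *Gas5* promoter (the downstream of its annotated starts) chr1:161034916-161035215 on the plus strand.
Malat1: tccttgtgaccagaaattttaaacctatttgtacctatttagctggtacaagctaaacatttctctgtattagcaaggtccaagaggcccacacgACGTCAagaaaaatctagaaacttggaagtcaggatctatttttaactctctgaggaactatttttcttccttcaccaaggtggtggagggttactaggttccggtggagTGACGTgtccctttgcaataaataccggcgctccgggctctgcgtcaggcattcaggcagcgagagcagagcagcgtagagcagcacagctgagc
Meg3: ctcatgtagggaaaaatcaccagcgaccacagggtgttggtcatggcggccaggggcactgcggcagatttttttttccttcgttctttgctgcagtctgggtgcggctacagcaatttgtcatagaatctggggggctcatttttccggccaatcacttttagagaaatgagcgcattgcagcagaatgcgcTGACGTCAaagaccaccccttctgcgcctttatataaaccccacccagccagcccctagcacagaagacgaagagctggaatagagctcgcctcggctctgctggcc
Gas5: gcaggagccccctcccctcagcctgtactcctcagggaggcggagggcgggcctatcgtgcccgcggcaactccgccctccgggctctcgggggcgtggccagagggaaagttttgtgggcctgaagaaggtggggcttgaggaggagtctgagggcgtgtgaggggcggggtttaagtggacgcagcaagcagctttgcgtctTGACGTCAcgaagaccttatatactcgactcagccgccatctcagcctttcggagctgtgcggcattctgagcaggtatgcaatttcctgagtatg
TGACGT is the core of the cAMP response element, which is bound by CREB and ATF proteins, and it was searched for after the sequences had been seen. It occurred in 3 of the 10 promoters annotated for 8 of the lncRNAs, those printed, and in 7.51% of all 32851 promoters of the same length. *Meg3* and *Gas5* held the full element TGACGTCA, which occurred in 1.79% of all promoters and overlaps TGACGT on both strands. On the strand of the gene the match began at -57 in *Meg3*, -46 in *Gas5* and -45 in *Malat1*, relative to the first transcribed base. TAATT, the core predicted for Rax in the study's reporter work, occurred in 1 of the 10, that of *Rian*, beginning at -76, and in 27% of all promoters. The study's predicted sites came from a much longer stretch upstream of *Socs3* than the windows searched here, so the counts are not alike. TAATTA, a homeodomain core that contains it, occurred in 0 of the 10 on either strand and in 5.29% of all promoters. The palindrome of paired-class homeodomains, TAAT and ATTA with 3 bases between them, occurred in 0 of the 10 and in 0.487% of all. Also searched for, TATAAA occurred in 1 of the 10 and in 13.6% of all, and CCAAT in 2 of the 10 and in 37.4% of all. A match describes the letters in these windows and is not a site that was shown to be bound. No RefSeq promoter was used for *Neat1*.

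The levels of the 9 lncRNAs ran from 0.193 FPKM for *Miat* to 730 for *Malat1*, as the plot of FPKM by mouse shows. Mean FPKM over the 4 mice was 599 for *Malat1*, 46.4 for *Tug1*, 40.8 for *Six3os1*, 29.7 for *Meg3*, 27.3 for *Gas5*, 3.66 for *Neat1*, 1.04 for *Rian*, 0.801 for *Snhg11* and 0.491 for *Miat*. The 4-mouse range of *Malat1* lay wholly above that of *Tug1*, that of *Gas5* above that of *Neat1*, and that of *Neat1* above that of *Rian*. The other neighbours in this order overlapped. FPKM divides by transcript length, so the order depends on the length given to each gene, and the RefSeq transcripts of *Meg3* run from 1896 to 14548 bases.

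**Figure D1:**
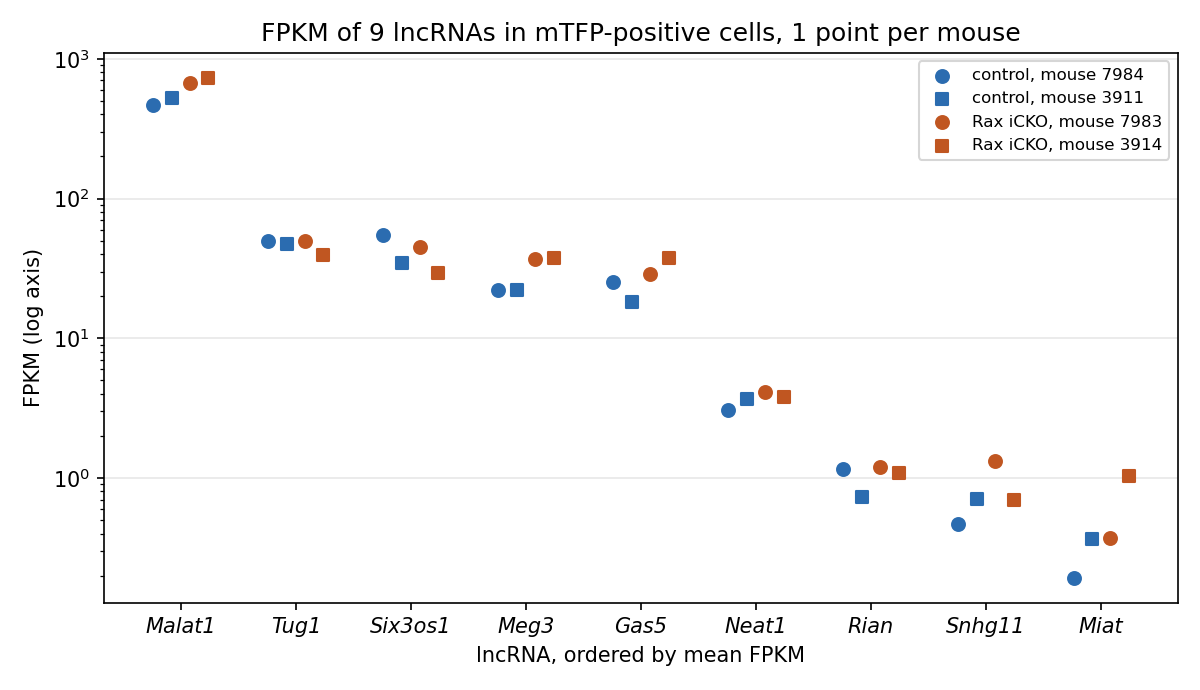
FPKM (log axis) of the 9 lncRNAs in each mouse, ordered by mean FPKM, with 1 point per mouse and colour by genotype. *Malat1* stands above the rest at 466 to 730 FPKM, and *Meg3*, *Gas5* and *Malat1* have both *Rax* iCKO points above both control points.

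The files hold no read counts, and the depth was estimated from the whole-read steps of low FPKM values over 571 genes. It came to 12710000 reads for control mouse 7984, 9260000 for control mouse 3911, 9420000 for *Rax* iCKO mouse 7983 and 9300000 for *Rax* iCKO mouse 3914. With the shortest and longest linked transcripts, *Malat1* rested on an estimated 34000 to 47000 reads per library, *Tug1* on 1700 to 4200, *Gas5* on 430 to 890, and *Meg3* on 390 to 5100. *Miat* rested on 22 to 84, *Snhg11* on 35 to 73 and *Rian* on 55 to 120, so their differences carry a large counting error. *Rax* itself, the targeted gene, was at 189 and 181 FPKM in the controls and at 111 and 98.4 in the *Rax* iCKO mice.

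The mTFP-positive cells held the markers of Müller glia, with summed FPKM of the 14 markers of 18315 and 14373 in controls 7984 and 3911, against 12390 and 12645 in *Rax* iCKO 7983 and 3914. Markers of other retinal cells were present too: the 12 rod markers summed to 1886 and 1962 in the controls and 1371 and 1216 in the *Rax* iCKO mice, and the 10 bipolar markers to 4436 and 11032 and to 6116 and 9078. Of these lists, 6 of 14 Müller markers and 10 of 12 rod markers were lower in both *Rax* iCKO mice, and 3 of 10 bipolar markers were higher in both, where 14.1% of all 12363 genes tested were lower and 15.4% higher. None of the markers of these 3 lists was at 0 in all mice. The 8 microglial markers summed to 40.1 and 43.3 FPKM in the controls and 73.3 and 9.69 in the *Rax* iCKO mice, with none apart. In sorted bulk RNA, fewer cells of a type and less RNA per cell cannot be told apart, and the part that cell makeup has in the lncRNA results below was not tested. The X-linked lncRNA *Xist*, which coats the inactive X chromosome, had 24.5 and 21.2 FPKM in the controls, and 0.0119 and 0.00605 in *Rax* iCKO. FPKM of the 4 Y-linked genes *Ddx3y*, *Eif2s3y*, *Kdm5d* and *Uty*, chosen after values were seen, summed to 66.8 in *Rax* iCKO mouse 7983 and were listed at 0 in the other 3. *Rax* iCKO mouse 3914 thus held almost no *Xist* and no Y-linked RNA. *Xist* thus split the mice as genotype did. The part of sex chromosomes in the differences between genotypes given here cannot be told apart from that of genotype and was not tested.

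*Meg3* (GRCm38 chr12:109540996-109571729, plus strand), the maternally expressed transcript of the *Dlk1*-*Dio3* region, was at 22.3 FPKM in control mouse 7984 and 22.2 in control mouse 3911, against 36.7 in *Rax* iCKO mouse 7983 and 37.8 in *Rax* iCKO mouse 3914. The groups did not overlap, and the mice of each group lay close together. The means were 22.2 ± 0.0564 in control and 37.2 ± 0.770 in *Rax* iCKO (SD, n = 2). On the log2(FPKM + 1) scale used for all fold changes here, limma gave a difference of 0.72 (SE 0.20, 95% interval 0.24 to 1.2), with an unadjusted p of 0.0102 and an adjusted p of 1.0. An unadjusted limma p under 0.05 was found for 2.86% of the 12363 genes, with 1.26% higher and 1.6% lower in *Rax* iCKO, and *Meg3* ranked 49th by that p. With either *Rax* iCKO mouse left out, so that 1 mouse stood against 2, the unadjusted p was over 0.05, with a difference of 0.70 or 0.74. Mouse 7983 exceeded mouse 7984 by 0.70, and mouse 3914 exceeded mouse 3911 by 0.74. Of the 12363 genes, 130 had a higher log2 difference, a count that leaves out larger decreases.

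*Rian* (chr12:109603945-109661716, plus strand), which lies downstream of *Meg3* in the same imprinted region and is a host of many small nucleolar RNAs, was at 1.16 and 0.733 FPKM in controls 7984 and 3911, against 1.19 and 1.08 in *Rax* iCKO 7983 and 3914. The lower *Rax* iCKO value lay below the higher control value, so the groups overlapped. The log2 difference was 0.14 (SE 0.30, 95% interval -0.60 to 0.88; limma unadjusted p = 0.658). The 95% interval of *Rian* contains the estimate of *Meg3*, 0.72. FPKM of *Meg3* over *Rian* was 19.2, 30.3, 30.8 and 35.0 in mice 7984, 3911, 7983 and 3914. Small RNA genes are also listed in this region. The 2 microRNA entries inside *Meg3* and the 10 microRNA and snoRNA entries inside *Rian* were at 0 in all 4 mice. The full-length cDNA kit primes on poly(A) and these entries are of short RNAs, so the zeros do not show that they were absent. The paternally expressed *Dlk1* was at no more than 0.0279 FPKM in any mouse, and *Rtl1*, which lies opposite to the maternal transcripts, at no more than 0.149. *Mirg*, the microRNA host further downstream, named here after its values were seen, was at 0.358 and 0 FPKM in the controls and 0.579 and 0.391 in the *Rax* iCKO mice.

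*Malat1* (chr19:5795690-5802672, minus strand), the nuclear speckle RNA, was at 466 and 526 FPKM in controls 7984 and 3911, against 674 and 730 in *Rax* iCKO 7983 and 3914. The groups did not overlap. The means were 496 ± 42.3 and 702 ± 39.2 (SD, n = 2), and the log2 difference was 0.50 (SE 0.28, 95% interval -0.18 to 1.18; limma unadjusted p = 0.122, adjusted p = 1.0). It ranked 133rd and 172nd among the 12363 genes by FPKM in the controls and 66th and 73rd in the *Rax* iCKO mice. Mouse 7983 exceeded mouse 7984 by 0.53 on the log2 scale, and mouse 3914 exceeded mouse 3911 by 0.47. Of the 1064 genes whose mean FPKM reached 100, a limit chosen after values were seen, the median difference was -0.18, 221 were above 0, and 10 including *Malat1* were as high as or higher than *Malat1*. *Malat1* and the long form of *Neat1* end without a poly(A) tail, and the full-length cDNA kit primes on poly(A), so how fully they were captured is not known.

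*Neat1* (chr19:5824708-5845480, minus strand), the paraspeckle scaffold, lies 22036 bases from *Malat1*. It was at 3.04 and 3.68 FPKM in controls 7984 and 3911, against 4.11 and 3.81 in *Rax* iCKO 7983 and 3914. The groups did not overlap, but control mouse 3911 and *Rax* iCKO mouse 3914 differed by only 0.039 on the log2 scale, against 0.34 for mice 7984 and 7983, and after quantile normalization or with equal medians the groups overlapped. The limma difference was 0.19 (SE 0.26, 95% interval -0.45 to 0.83; unadjusted p = 0.498), and it ran from 0.084 to 0.29 when each mouse was left out. FPKM of *Malat1* over *Neat1* was 153 and 143 in controls 7984 and 3911, against 164 and 192 in *Rax* iCKO 7983 and 3914, higher in both *Rax* iCKO mice.

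Among 22 genes for proteins of speckles and paraspeckles, 7 were higher and 3 lower in both *Rax* iCKO mice, with a median log2 difference of 0.083, against 15.4% higher and 14.1% lower among all 12363 genes tested and a median of -0.0044. The median of the list ran from 0.033 to 0.19 when each mouse was left out. *Ewsr1*, an RNA-binding protein gene, was at 239 and 258 FPKM in the controls and 294 and 311 in the *Rax* iCKO mice. *Hnrnpk*, the most abundant of the list, overlapped at 615 and 751 against 589 and 636. Of the paraspeckle proteins that bind *Neat1*, chosen here after their values were seen, *Sfpq* had 33.0 and 31.9 against 35.1 and 36.4 FPKM, and *Nono* overlapped between groups, at 162 and 155 FPKM against 150 and 177.

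*Gas5* (chr1:161034601-161038539, plus strand), a snoRNA host whose spliced RNA accumulates when growth stops, was at 25.2 and 18.1 FPKM in controls 7984 and 3911, against 28.7 and 37.4 in *Rax* iCKO 7983 and 3914. The groups did not overlap, and the spread within a group was wide. The means were 21.6 ± 5.03 and 33.1 ± 6.17 (SD, n = 2), and the log2 difference was 0.60 (SE 0.26, 95% interval -0.036 to 1.23; limma unadjusted p = 0.0605, adjusted p = 1.0). Mouse 7983 exceeded mouse 7984 by 0.18 and mouse 3914 exceeded mouse 3911 by 1.0, and without control mouse 3911 the limma difference was 0.37. On the log2(FPKM + 1) scale, *Gas5* had the widest range over the 4 mice of the 7 tested. The snoRNA entry *Snord47* inside *Gas5* was at 0 in all mice, which likewise does not show that it was absent.

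The RefSeq start of the *Gas5* promoter printed above began with C and a run of 5 pyrimidines. At least that run from a C was held by 2.51% of all promoters. The annotated start of *Miat* also began with C, with a run of 6, while the other start of *Gas5* began with G. *Gas5* is one of the genes with a 5′ terminal oligopyrimidine (TOP) tract, most of which encode ribosomal proteins and translation factors. All tested genes were higher in both *Rax* iCKO mice in 15.4% of cases and lower in both in 14.1%. The list used here held mainly translation factors and no gene with an *Rpl* or *Rps* symbol. Of its 19 genes tested, 1 was higher and 5 were lower in both *Rax* iCKO mice, with a median log2 difference of -0.21, which lay between -0.48 and 0.033 when each mouse was left out. Of 14 snoRNA host lncRNAs, 3 were higher and 2 lower in both, with a median of 0.19, between -0.094 and 0.39 when each mouse was left out. *Snhg18* was at 29.6 and 28.0 FPKM in the controls and at 17.7 and 19.9 in the *Rax* iCKO mice (log2 difference -0.59, limma unadjusted p = 0.0275), *Snhg20* at 135 and 193 against 188 and 250, and *Snhg17* at 2.75 and 2.88 against 4.28 and 4.37.

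*Snhg11* (chr2:158375713-158386474, plus strand), a snoRNA host gene that GENCODE types as protein-coding and that lies 14191 bases beyond *Snhg17*, was at 0.471 and 0.703 FPKM in controls 7984 and 3911, against 1.33 and 0.701 in *Rax* iCKO 7983 and 3914. The groups overlapped, and the higher *Rax* iCKO mean rested on mouse 7983. *Miat* (chr5:112213228-112228948, minus strand), a neuronal nuclear RNA, was at 0.193 and 0.367 FPKM in the controls and at 0.373 and 1.03 in the *Rax* iCKO mice. The groups did not overlap by a margin of 0.373 against 0.367, which is an estimated 31 against 30 reads. Both had a mean FPKM under 1 and were left out of the main limma test. With no filter the log2 difference was 0.33 for *Snhg11* (limma unadjusted p = 0.198, adjusted p = 0.995) and 0.39 for *Miat* (limma unadjusted p = 0.142, adjusted p = 0.995). Without *Rax* iCKO mouse 7983 it was 0.10 for *Snhg11*, and without *Rax* iCKO mouse 3914 it was 0.10 for *Miat*.

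*Six3os1* (chr17:85601932-85618396, minus strand), the transcript opposite to *Six3*, was at 54.6 and 34.6 FPKM in controls 7984 and 3911, against 44.9 and 29.2 in *Rax* iCKO 7983 and 3914. The groups overlapped, and mouse 7984 was higher than mouse 3911 and mouse 7983 higher than mouse 3914. The log2 difference was -0.26 (SE 0.32, 95% interval -1.04 to 0.52; limma unadjusted p = 0.450), with -0.28 for mouse 7983 minus 7984 and -0.24 for mouse 3914 minus 3911, while the 2 controls differed by -0.65 (mouse 3911 minus 7984). *Six3* itself, a homeobox gene of retinal progenitors and Müller glia, was at 32.8 and 19 against 27.8 and 13.1 FPKM, with a log2 difference of -0.37 (limma unadjusted p = 0.414). FPKM of *Six3os1* over *Six3* was 1.67, 1.82, 1.62 and 2.23 in mice 7984, 3911, 7983 and 3914. The genes share 106 exon bases on opposite strands, and the library kit does not mark strand, so reads there cannot be told apart.

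*Tug1* (chr11:3639785-3648814, minus strand), a nuclear RNA known from photoreceptor development, was at 49.6 and 47.0 FPKM in controls 7984 and 3911, against 50.02 and 39.2 in *Rax* iCKO 7983 and 3914. The groups overlapped, with a log2 difference of -0.12 (SE 0.22, 95% interval -0.65 to 0.41; limma unadjusted p = 0.593). With *Tug1* in the same libraries as the denominator, FPKM of *Meg3* over *Tug1* was 0.449 and 0.472 in the controls and 0.733 and 0.965 in the *Rax* iCKO mice, that of *Malat1* over *Tug1* was 9.40 and 11.2 against 13.5 and 18.6, and that of *Gas5* over *Tug1* was 0.508 and 0.385 against 0.574 and 0.956. These 3 ratios were higher in both *Rax* iCKO mice. Their numerators were already higher in both and *Tug1* was not, so the ratios largely restate those values. *Morc2a*, which lies next to *Tug1* on the genome and shares exon bases with it in GENCODE, was at 9.57 and 9.04 FPKM in the controls and 11.4 and 12.5 in the *Rax* iCKO mice (log2 difference 0.33, limma unadjusted p = 0.191).

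**Figure D2:**
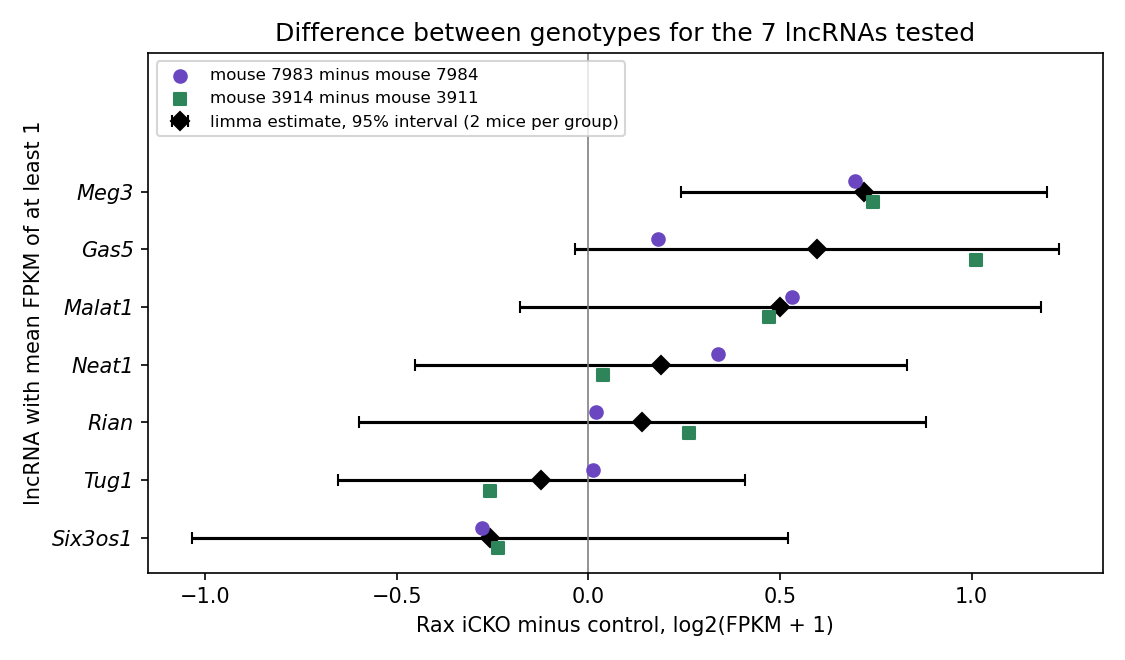
Difference between *Rax* iCKO and control on the log2(FPKM + 1) scale for the 7 lncRNAs tested, as the limma estimate with its 95% interval (2 mice per group) and as the differences of mouse 7983 minus 7984 and mouse 3914 minus 3911. The interval of *Meg3*, 0.24 to 1.2, lies above 0, and those of the other 6 include 0.

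Counted over the 7 tested lncRNAs, 4 were higher in both *Rax* iCKO mice, 0 were lower in both and 3 overlapped, beside 15.4% of all 12363 genes higher and 14.1% lower. With 2 mice against 2, the exact two-sided permutation test on FPKM cannot go below 0.333, which is what *Meg3*, *Gas5*, *Malat1*, *Neat1* and *Miat* gave. It gave 0.667 for *Rian*, *Snhg11* and *Six3os1* and 1.0 for *Tug1*. The median log2 difference of the 7 was 0.19, against -0.0044 for all genes tested, and it lay between 0.14 and 0.30 when each mouse was left out. With all mice it ran from 0.14 with quantile normalization to 0.50 over the 5 lncRNAs left with the filter raised to 5 FPKM. With no filter it was 0.33 over all 9. With a mouse left out, a check added after the values were seen, 2 mice were set against 1 and more genes fall apart. Those apart numbered 5 higher and 0 lower without control mouse 7984, where 35% of all tested genes were higher and 35.3% lower, and 4 higher and 1 lower without control mouse 3911 (33.6% and 33.3%). They numbered 4 higher and 2 lower without *Rax* iCKO mouse 7983 (31.2% and 29.1%), and 6 higher and 0 lower without *Rax* iCKO mouse 3914 (29.7% and 31.3%).

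**Figure D3:**
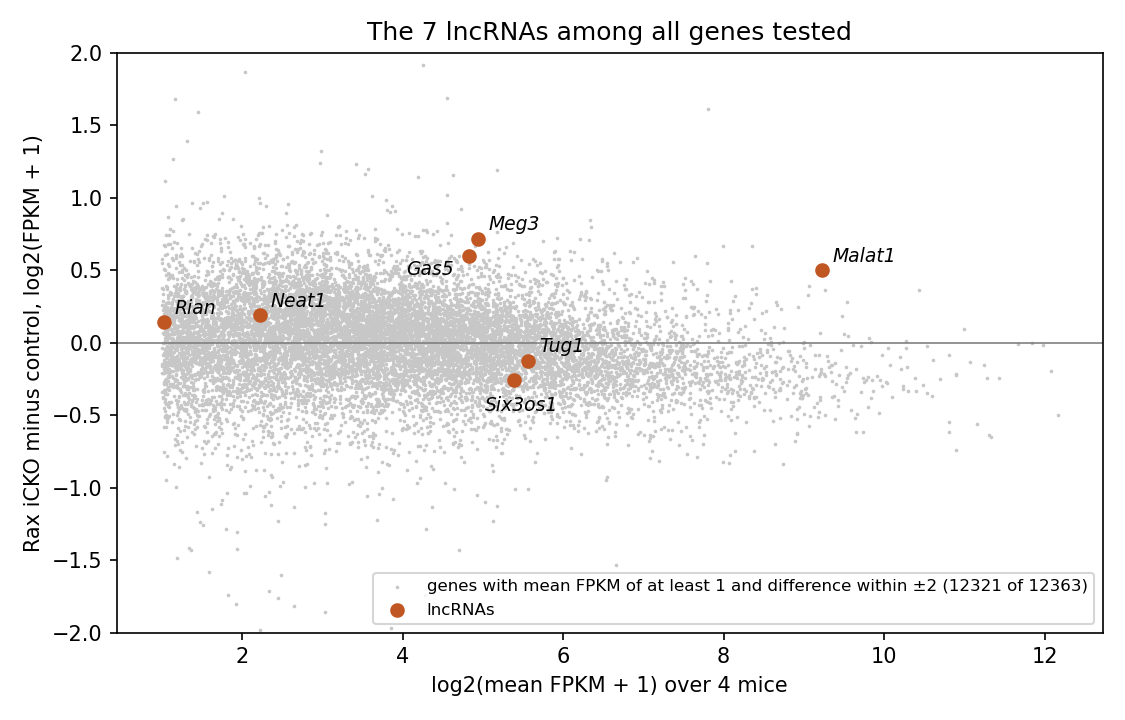
Difference between *Rax* iCKO and control against mean level, both as log2(FPKM + 1), for the tested genes with a difference within 2 (grey) and the 7 lncRNAs tested (orange). *Meg3*, *Gas5* and *Malat1* lie at 0.72, 0.60 and 0.50, and *Malat1* lies above most genes of its level.

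The other 24 lncRNAs tested, from a list of 55 of which 43 were measured, gave 3 higher and 3 lower in both *Rax* iCKO mice and a median log2 difference of 0.031, which ran from -0.050 to 0.091 when each mouse was left out. *Mir124a-1hg*, the host of the neuronal microRNA miR-124, was at 15.7 and 12.7 FPKM in the controls and 23.7 and 20.1 in the *Rax* iCKO mice (log2 difference 0.59, limma unadjusted p = 0.0412). *Mir99ahg*, another microRNA host, was at 4.28 and 5.33 against 2.58 and 2.62 (log2 difference -0.68, limma unadjusted p = 0.0419). *Xist*, with a log2 difference of -4.56, had an adjusted p of 0.0167 from limma and was the one lncRNA of these lists that passed. With no filter its adjusted limma p was 0.168, and with the filter raised to 5 FPKM it was 0.0580, so the call was lost under both. As given above, *Xist* belongs to the inactive X chromosome, so its difference cannot be told apart from one of sex chromosomes. Among 18 imprinted genes tested, 2 were higher and 3 lower in both, with a median of -0.087, which ran from -0.19 to -0.0094 when each mouse was left out. Among all genes tested 15.4% were higher and 14.1% lower in both.

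In *Rax* iCKO mice, the median log2 difference was -0.33 for the 14 Müller glial markers, -0.58 for the 12 rod markers, -0.44 for the 18 immediate early genes tested, which respond within minutes to handling and activity, and 0.34 for the 10 bipolar markers. It was -0.69 for the 3 astrocyte markers tested, of which 2 were lower in both, among them *Aldh1l1*, a folate enzyme gene of glia, at 44.2 and 30.5 against 22.4 and 20.9 FPKM (limma unadjusted p = 0.0244). The plot of list medians gives the deviation of each list from its 4-mouse mean in each mouse. Of the immediate early genes, 12 of 18 were lower in both *Rax* iCKO mice and none was higher in both, beside 14.1% lower and 15.4% higher among all genes tested. *Trpm1*, the channel of ON bipolar cells, was at 178 and 213 FPKM in the controls and 293 and 327 in the *Rax* iCKO mice. When each mouse was left out, the median ran from -0.59 to -0.084 for Müller glial markers, from -0.76 to -0.33 for rod markers, from -0.71 to -0.19 for immediate early genes and from -0.040 to 0.73 for bipolar markers, and control mouse 7984 had the lowest bipolar markers.

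**Figure D4:**
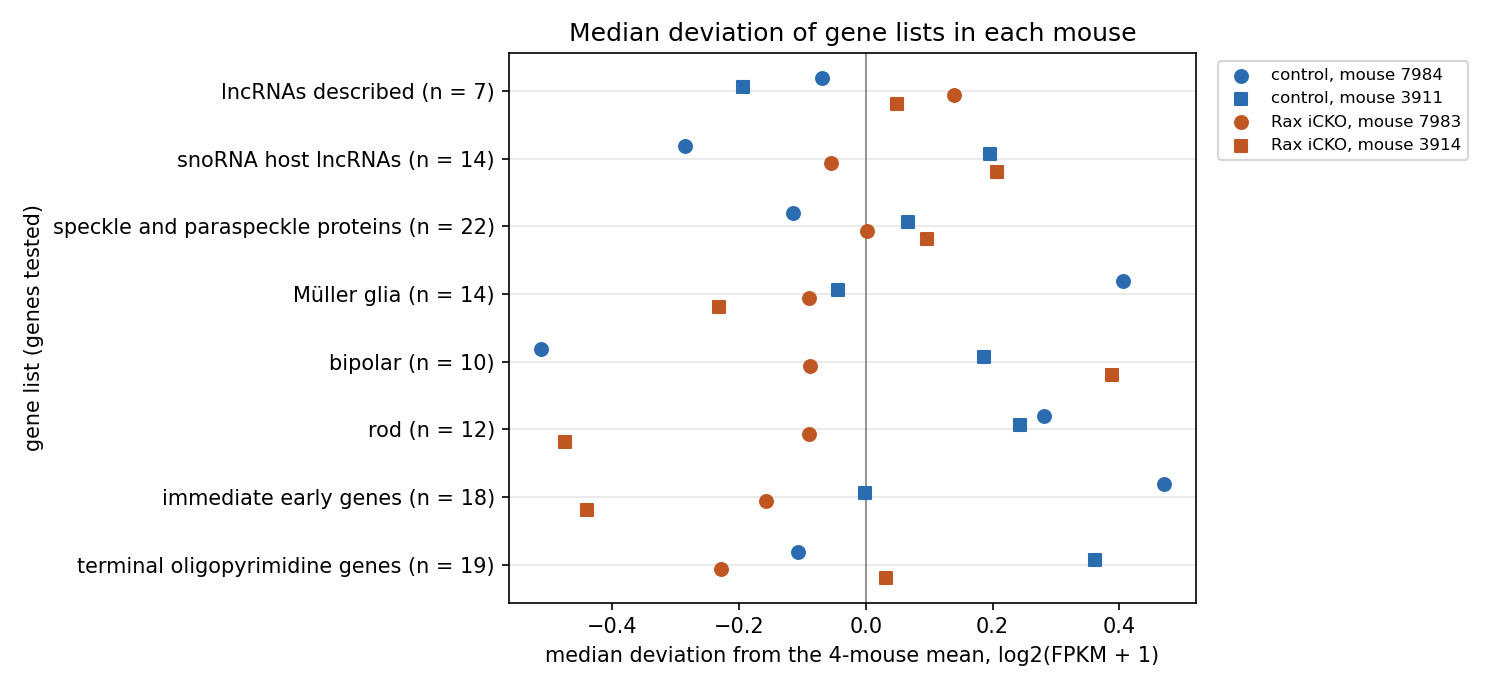
Median deviation from the 4-mouse mean, as log2(FPKM + 1), of the genes of each list in each mouse, with colour by genotype. The 2 *Rax* iCKO points of the lncRNAs lie above both control points, those of the rod markers, Müller glial markers and immediate early genes lie below both, and the bipolar markers overlap.

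The genes whose centred profiles over the 4 mice were nearest to that of *Gas5*, the lncRNA with the widest range, were *4933429O19Rik* (root mean square distance 0.0145 on the log2 scale), *Pde3a* (0.0276) and *Sema7a* (0.0332), and 46 of the tested genes lay within 0.1. The nearest to *Malat1* were *H2-K2* (0.0200), *Pusl1* (0.0223) and *Atp2b1* (0.0226), and 196 genes lay within 0.1. *Meg3* lay 0.129 from *Malat1* and 0.207 from *Gas5*, and *Neat1* lay 0.172 from *Malat1*. With 4 mice many genes share such a profile.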

How the data were processed

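RNA-seq was made by the authors from mTFP-positive cells sorted by FACS, with reads mapped to mm10. The submitters' processing notes name TopHat2 2.1.1, Bowtie2 2.2.8, SAMtools 0.1.18 and Cuffdiff 2.2.1, whereas the paper's methods name Cufflinks and other versions of the first 3. The authors deposited 1 FPKM value per gene and library, used here without further scaling. The annotation and strand setting are not given in the sources used here. FPKM divide by each library's own mapped reads and by gene length, so abundant genes shift the others. Groups were taken from the sample labels, with 2 mice each.

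The genotypes were compared over genes whose mean FPKM reached 1, by limma 3.58.1 (lmFit, eBayes with a trend) run in R 4.3.3, on log2(FPKM + 1), two-sided, with Benjamini-Hochberg adjustment at 0.05. Exact permutation tests used scipy 1.17.1. With 2 mice per group, limma drew the spread of each gene toward that of all genes tested at a similar level. Its SEs, intervals and p-values thus rest on the spread between these mice, but not on a gene's own spread alone. Scripts were tested on simulated data. Positions come from RefSeq and overlaps of exons from GENCODE, both GRCm38. Depth was estimated from low FPKM values with 200 bases taken off each transcript length. As alternatives, the low-value filter was dropped or raised to 5, the pseudocount was lowered to 0.1, values were quantile-normalized or set to equal medians, the variance trend was left off, number runs of the mice entered as a block, and each mouse was left out.

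The lncRNAs, lists and tests were chosen with earlier results of these data known. The genes named are the 9 lncRNAs, genes next to or overlapping them (some are not reported here), *Rax*, genes called by limma, genes of the lists with an unadjusted p under 0.05 or among the most abundant, and the 3 profiles nearest to *Gas5* and *Malat1*. Genes outside this rule are named as such.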

Additional observations from a re-analysis of the deposited data

How the results depend on the processing

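None of the lncRNAs passed limma's adjusted threshold in any fit that tested them, which were all 9 with no filter, 5 with the filter raised to 5 FPKM and 7 under each other alternative. The number of all genes called was 3, and it was 0 with no filter and 0 with the filter raised to 5 FPKM (624 and 279 genes at an unadjusted p under 0.05), 6 with equal medians, 71 with a replicate block, and 15 to 20 when each mouse was left out. With the block the adjusted limma p was 0.0511 for *Meg3*, 0.131 for *Malat1* and 0.155 for *Gas5*. These 3 had an unadjusted limma p under 0.05 with the block and with quantile normalization, where 1938 and 408 of the 12363 genes had one. The deviations of mice with nearby numbers had a correlation of 0.503 across genes, but with 2 pairs the numbers were not taken to pair the mice, and the differences given between mice of nearby numbers are descriptions. Leaving out a mouse gave -0.018 to 0.30 for *Rian*, -0.58 to 0.065 for *Six3os1* and -0.30 to 0.050 for *Tug1*, all with a change of sign, and 0.37 to 0.82 for *Gas5*, 0.084 to 0.29 for *Neat1*, 0.41 to 0.59 for *Malat1* and 0.70 to 0.74 for *Meg3*. With no filter it gave 0.10 to 0.56 for *Snhg11* and 0.10 to 0.67 for *Miat*. With pseudocount 0.1 the difference was 0.66 for *Snhg11*, 0.98 for *Miat* and 0.27 for *Rian*, which had 0.14 in the main fit. With either *Rax* iCKO mouse left out, the unadjusted limma p of *Meg3* was over 0.05, while its difference hardly moved. Leaving out a mouse leaves 1 group with a single mouse, which is assumed to vary like the other group. Under quantile normalization and equal medians the groups of *Neat1* overlapped, and with equal medians those of *Rian* no longer did. The causes were not tested. Few reads limit *Miat*, *Snhg11* and *Rian*.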
